A study of Mus musculus with 32 samples.

Results

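Muscle RNA from 4 male mice lacking Nox4 was set against a pool of wild-type muscle RNA on 8 cDNA arrays with 2 dyes, which are 8 of the 32 arrays of the study. These 8 were taken by their titles, and no measured value entered the choice. Each animal was hybridised on 2 arrays, once labelled with Cy5 and once with Cy3, and its 2 arrays were averaged, so that n is 4 animals unless stated. The knockout group was Nox4 -/- on C57BL/6, male and 17 weeks old. The control was 1 pool of RNA from wild-type C57BL/6 males, also 17 weeks old. The second channel's labels list 4 animals for it, whereas 6 control animals are given with the labelling steps. The labels do not say which muscle was taken or how the Nox4 allele was made. The remaining 24 arrays hold brain, kidney and pancreas of the same 4 knockout animals against pools of those tissues.

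Nox4 is a membrane enzyme of the NADPH oxidase family that passes electrons from NADPH to oxygen and releases mainly hydrogen peroxide. Unlike the phagocyte oxidase built on Cybb, it needs the partner subunit Cyba but neither the cytosolic activators nor a Rac GTPase. In skeletal muscle it has been placed near the calcium release channel of the sarcoplasmic reticulum and among the oxidant sources that respond to exercise.

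Values are log2 ratios, likely knockout over pool, so that 1 is a doubling over the pool and 0 is equality. The basis is the design text and the channel that carries each animal's own RNA. If the ratios run the other way, above and below exchange places throughout. Nox4 itself has no named probe (0 of 20794), so neither the labels nor the direction could be checked on the deleted gene. A ratio carries no level, so the labelled tissue could not be checked against its defining markers. In a bulk sample, fewer cells of a type and less RNA per cell cannot be told apart. The muscle arrays carried 20183 to 20650 values each, and the median ratio of all genes was −0.02. The spread of the animals' values over genes was an SD of 0.18 in animal 1, 0.30 in animal 2, 0.43 in animal 3 and 0.32 in animal 4. Across genes, arrays of different animals correlated at r from 0.195 to 0.451 with the same dye order and from −0.289 to −0.0618 with opposite order. The 2 arrays of 1 animal correlated at r from −0.357 to −0.00792. A dye term passed for 2526 of 16610 genes in limma, and the median size of the dye effect was 0.27, against 0.08 for the mean ratio. Counts of calls, counts of 1 sign, the named differences between tissues and the range of list medians are therefore also given with the Cy3 arrays turned in sign, while single muscle genes and single lists are given as deposited. If the Cy3 columns were already turned before deposit, the turned values are differences between dye orders and not knockout ratios. On the muscle arrays with the knockout in Cy5, 8.68% to 10.8% of nonzero values end in 0 at the third decimal, and on those with the knockout in Cy3 0% do, so the columns were written in different ways. Values beyond 8 in size, left out here, were all positive on the Cy5 arrays (22 to 102 per array) and all negative on the Cy3 arrays (31 to 127). How the columns were made is not given in the sources used here.

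The genes of smallest p with 1 sign on every array were Man1c1, Psmd2 and 2310030G06Rik, each at more than a doubling over the pool. Man1c1 encodes a Golgi mannosidase that trims N-linked glycans. It stood at 1.14, 1.83, 1.23 and 1.29 in animals 1 to 4, with a mean of 1.37 ± 0.13 (SE, n = 4), which is 2.59-fold, and a 95% interval of 1.06 to 1.68. Its lowest array read 0.86 and its highest 2.08, and the means by dye order were 1.22 and 1.52, so both orders lay on the same side. Psmd2 encodes a scaffold subunit of the 19S cap of the proteasome. It stood at 0.72, 1.45, 1.02 and 1.24, with a mean of 1.10 ± 0.13 (SE, n = 4). The uncharacterised 2310030G06Rik stood at 0.58, 1.46, 1.24 and 1.23, with a mean of 1.13 ± 0.15 (SE, n = 4). In all 3 genes animal 2 was highest and animal 1 was lowest, and no array lay below the pool.

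These genes did not pass the test across all genes. Limma called 0 of 16611 genes (0%) at an adjusted p of 0.05, where the smallest adjusted p was 0.387. At an unadjusted p of 0.05, 640 genes lay higher (3.85%) and 668 lower (4.02%). A fit of the 8 arrays with a term for dye called 2 genes, Man1c1 (limma, adjusted p = 0.0229) and Psmd2 (limma, adjusted p = 0.0473). That fit took the correlation between the 2 arrays of an animal as 0.08 for every gene. The 8 arrays therefore counted as nearly independent, although they come from only 4 animals. These 2 adjusted p may be too small for genes whose arrays agree more closely within an animal. With the Cy3 arrays turned the count in the test over animals was 882, of which 294 lay higher and 588 lower. These 882 may be dye effects. With the spread shared over the 4 tissues the count was 281, of which 249 lay higher.

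Promoter windows of 250 bases before the annotated start were read from RefSeq on build GRCm38.p6 for the 15 higher and 15 lower genes described here, of which 12 and 9 matched. They are shown for Man1c1, the gene of smallest p, and for Ppp1r15a, which held 2 of the 4 motifs searched. Capitals mark the motifs, read on both strands. The windows lie at chr4:134704291-134704540 and chr7:45526269-45526518, both on the minus strand and printed 5′ to 3′.
Man1c1: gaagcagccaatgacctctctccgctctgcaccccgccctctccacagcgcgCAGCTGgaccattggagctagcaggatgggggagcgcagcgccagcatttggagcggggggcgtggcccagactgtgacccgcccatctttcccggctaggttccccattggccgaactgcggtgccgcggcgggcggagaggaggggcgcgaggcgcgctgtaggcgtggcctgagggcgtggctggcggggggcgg
Ppp1r15a: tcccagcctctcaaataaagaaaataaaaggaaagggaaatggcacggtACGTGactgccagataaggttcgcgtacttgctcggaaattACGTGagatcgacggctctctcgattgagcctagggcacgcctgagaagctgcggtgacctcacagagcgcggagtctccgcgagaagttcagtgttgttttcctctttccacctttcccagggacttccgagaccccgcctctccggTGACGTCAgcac
The E-box CAGCTG, bound by basic helix-loop-helix factors such as the myogenic ones, was in the window of Man1c1 alone among the 12 higher genes, and in 13.0% of all 32851 windows. The cyclic AMP response element TGACGTCA was in 1 of the 12, Ppp1r15a, and in 1.55% of all windows. The hypoxia response core ACGTG was in 2 of the 12, Ppp1r15a and Unc13b, and in 16.6% of all windows. The antioxidant response core TGACNNNGC, the site of Nfe2l2, was in Zmpste24 alone, and in 10.2% of all windows. Among the 9 lower genes these motifs were in 2 (CAGCTG), 1 (TGACGTCA), 2 (ACGTG) and 2 (TGACNNNGC). No motif overlapped another in the windows printed. A match describes the letters only.

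The other 12 of the 15 higher genes had means between 0.49 and 1.32. They include adhesion, protease, nuclear and stress response genes. Rpap1, a factor associated with RNA polymerase II, stood at 0.63, 1.78, 1.23 and 1.51, although its arrays ran from 0.06 to 2.38. Ublcp1, a phosphatase of the nuclear proteasome, stood at 0.80, 1.82, 0.83 and 1.46. Bace2, an aspartyl protease, stood at 0.74, 1.96, 1.03 and 1.31. All 3 were more than doubled on average, with animal 2 again the highest.

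Icam5, an adhesion molecule known from forebrain neurons, had a mean of 1.32 ± 0.22 (SE, n = 4), and Flrt3, a leucine-rich repeat adhesion protein, one of 1.21 ± 0.20. Thbs1, the matrix glycoprotein thrombospondin-1, stood at 0.63, 1.65, 0.86 and 0.94. Between 0.71 and 0.75 lay Gng10, a G protein gamma subunit, Hdac3, a histone deacetylase, Unc13b, which primes synaptic vesicles, and Zmpste24, the protease that matures prelamin A. Il18, an inflammasome cytokine, stood at 0.46, 0.72, 0.49 and 0.43. Ppp1r15a, also called GADD34, which directs a phosphatase to eIF2 alpha, stood at 0.45, 0.60, 0.48 and 0.43. Animal 2 was the highest in 15 of the 15 genes and animal 1 the lowest in 13 of them.

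The 15 genes below the pool on every array were closer to it, with means between −0.36 and −0.19. Rac2, the Rac GTPase of blood cells that serves the phagocyte oxidase, stood at −0.43, −0.38, −0.44 and −0.19, with a mean of −0.36 ± 0.07 (SE, n = 4) and a 95% interval of −0.54 to −0.18. Lgals1, the lectin galectin-1, stood at −0.21, −0.28, −0.31 and −0.31. Cyp2d12, a cytochrome P450, stood at −0.23, −0.20, −0.32 and −0.34, and Aplf, a DNA repair factor, at −0.18, −0.34, −0.38 and −0.23. No array of these 4 genes lay above 0 once probes were averaged. Taken singly, the 2 probes of Lgals1 lay above 0 on 1 and 5 of 8 arrays, and each of the 2 probes of Aplf on 2.

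Animal 3 was the lowest in 9 of the 15 lower genes and animal 4 in 5. Atp4a, the catalytic subunit of the gastric proton pump, read −0.13 and −0.14 in animals 1 and 2 and −0.58 and −0.42 in animals 3 and 4. Tmub1, a membrane protein with a ubiquitin-like domain, read −0.04 in animal 1 and −0.59 in animal 3. Fgf7, a fibroblast growth factor made by stromal cells, read −0.57 in animal 3, while its other 3 values ran from −0.20 to −0.16. The cytoskeletal genes Ablim3 and Avil had means of −0.21 and −0.19. The others were Crisp2, Wdr33, Gsc, Oard1, Ly6m and Tmem151a, all between −0.31 and −0.22.

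**Figure D1:**
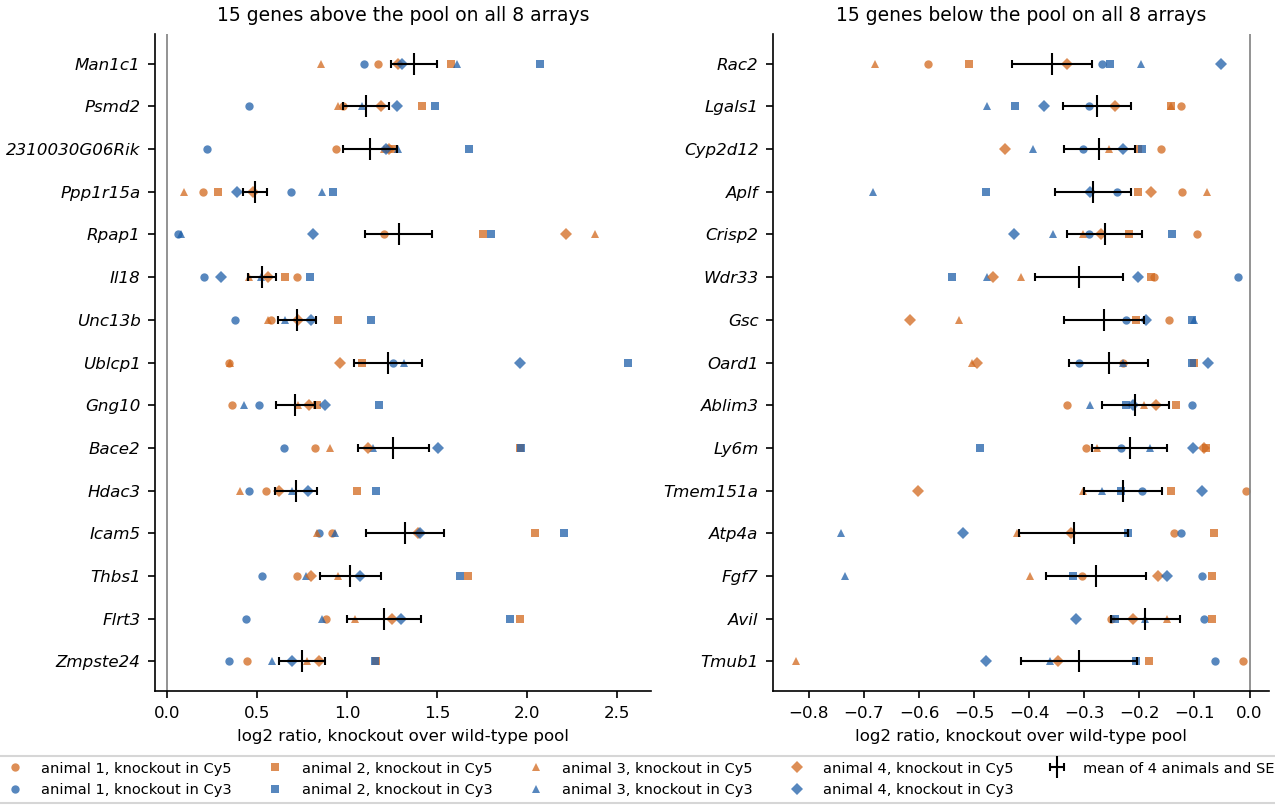
Log2 ratio of knockout over wild-type pool (x axis) of the 15 higher and 15 lower muscle genes (y axis) on each of the 8 arrays. Shape gives the animal, colour the dye of the knockout, and the black bar the mean of 4 animals with its SE; the squares of animal 2 lie farthest right for most higher genes, and no array of a lower gene reads below −0.82.

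Of the NADPH oxidase family and its partners, 8 of 18 listed genes were tested, none passed, and 6 lay below 0 with a median of −0.10. Rac2 was below the pool on all 8 arrays, a property of 0.549% of all genes measured on 8. In kidney of the same animals it was as low, at −0.36 ± 0.10, with −0.19 ± 0.14 in brain and −0.05 ± 0.17 in pancreas (SE). Cyba, the membrane partner of Nox4, stood at −0.08, −0.09, −0.14 and −0.12. All 4 of its animals lay below 0, but its arrays did not: the 4 with the knockout in Cy5 read 0.22 to 0.37 and the 4 in Cy3 −0.61 to −0.37. Poldip2, which binds Cyba and raises Nox4 activity, stood at 0.09, 0.24, 0.08 and −0.01, with all its Cy5 arrays below 0 and all its Cy3 arrays above.

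Cybb, which carries the electrons in the phagocyte enzyme, stood at −0.12, 0.36, 1.05 and 0.44, and its mean of 0.43 ± 0.18 (SE, n = 4) rested on the Cy5 arrays, whose mean was 1.03 against −0.16 for Cy3. Noxa1, an activator of Nox1, stood at −0.05, −0.63, −1.20 and 0.01. Ncf4, the p40 subunit of the phagocyte oxidase, stood at −0.07, −0.02, −2.53 and −0.36, where the value of animal 3 held 1 array at −4.68 and 1 at −0.37. Rac1, the widespread Rac GTPase, and Noxo1, the organiser of Nox1, were at −0.09 ± 0.06 and −0.05 ± 0.11 (SE, n = 4).

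Among 29 antioxidant and glutathione genes none passed, 7 lay above 0 and 22 below, and the median was −0.05. Catalase (Cat), which breaks down hydrogen peroxide, stood at −0.22, −0.21, −0.53 and −0.21, below the pool in each animal but on only 5 of 8 arrays. Nfe2l2, the transcription factor NRF2 that drives many of these genes, was at −0.15 ± 0.07 and the mitochondrial thioredoxin Txn2 at −0.15 ± 0.07 (SE, n = 4). Both changed sign with the dye order. Nfe2l2 had means of −0.88 in Cy5 and 0.57 in Cy3, and Txn2 had means of 0.27 and −0.57. The extracellular superoxide dismutase Sod3 was at 0.13 ± 0.07. Over all genes tested 41.6% lay above 0, against 24.1% of this list.

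Of 30 genes of sarcomere and fibre type, 10 lay above and 20 below 0, with a median of −0.04 and none passing. Tnni1, the slow-fibre troponin I, was the exception in size, from 0.06 in animal 1 to 1.24 in animal 4. Myoglobin (Mb), the oxygen store of oxidative fibres, stood at 0.04, −0.23, −0.58 and −0.68. The fast light chain Mylpf and the muscle creatine kinase Ckm were at −0.12 ± 0.07 and −0.10 ± 0.07 (SE, n = 4). By dye order Mylpf had means of −0.315 in Cy5 and 0.08 in Cy3. The 16 markers of the skeletal muscle fibre had a median of −0.05, from −0.36 to 0.09.

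Of 18 genes of calcium handling, 8 lay above and 10 below 0, with a median of −0.01. Pln, or phospholamban, which restrains the calcium pump of the sarcoplasmic reticulum, was at 1.09 ± 0.45 (SE), from 3 animals only, since 1 array of animal 3 gave no usable value. It stood at 2.09, 1.39 and −0.22 in animals 1, 2 and 4, so its sign differed between animals. Pvalb, the calcium buffer of fast fibres, was at −0.19 ± 0.08 and Stac3, part of the excitation coupling complex, at −0.20 ± 0.11 (SE, n = 4). Stac3 lay above 0 on all Cy5 arrays and below 0 on all Cy3 arrays, at means of 0.50 and −0.91. For Pvalb the means were −0.39 in Cy5 and 0.01 in Cy3.

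Of 14 myogenic regulators and regeneration genes, 4 lay above and 10 below 0. Mef2c, a transcription factor of muscle differentiation, was at 0.32 ± 0.09 on 7 of 8 arrays. Cdh15, the M-cadherin of satellite cells, stood at −0.31, −0.22, −0.17 and −0.27, with means of −0.02 in Cy5 and −0.46 in Cy3. Ncam1, an adhesion molecule of nerve and regenerating fibres, was at 0.48 ± 0.10 on all 8. The 5 satellite cell markers tested had the lowest median of all lists, −0.13, with 4 of 5 below 0. They included Cd34, also an endothelial and progenitor marker, below 0 on 8 of 8 arrays at −0.10, −0.15, −1.23 and −0.35.

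Of 31 genes of atrophy, proteasome and ubiquitin, 14 lay above and 17 below 0, with a median of −0.01. Beside Psmd2 and Ublcp1, the 19S subunit Psmd12 stood at 0.37, 1.27, 0.31 and 0.80. Other subunits lay on the other side of 0: the 19S ATPase Psmc6 was at −0.16 ± 0.07, below 0 on all 8 arrays, and the 20S subunit Psmb1 at −0.40 ± 0.17 (SE, n = 4). Of 55 cytosolic ribosomal protein genes, 17 lay above and 38 below 0, with a median of −0.06. Rps19, of the small subunit, stood at −0.41, −0.92, −0.44 and −0.18.

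Of 44 oxidative phosphorylation genes, 18 lay above and 26 below 0 (median −0.03). Cox6a2, the muscle form of a cytochrome c oxidase subunit, was at 0.54 ± 0.23 and Ndufs7 of complex I at 0.29 ± 0.15 (SE, n = 4). Cox6a2 stood at 0.13, 0.12, 1.46 and 0.46 and Ndufs7 at 0.06, 0.22, 0.84 and 0.07, so both were highest in animal 3. The 2 probes of Ndufs7 read 0.54 and 0.05. Ndufb9 and Ndufb3, also of complex I, were at −0.22 ± 0.08 and −0.22 ± 0.10 (SE, n = 4). By dye order Ndufb3 had means of 0.04 in Cy5 and −0.48 in Cy3. Of 20 glycolysis and glycogen genes 8 lay above 0 (median −0.01). Gapdh, a glycolytic enzyme, was above the pool on all 8 arrays at 0.50, 1.53, 0.55 and 0.76. Of 22 genes of fatty acid oxidation 8 lay above 0 (median −0.03), with Etfdh, which passes electrons to ubiquinone, at −0.49 ± 0.21. All Cy5 arrays of Etfdh lay above 0 and all its Cy3 arrays below, at means of 0.61 and −1.59.

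Among 25 genes of the unfolded protein and integrated stress response, 11 lay above and 14 below 0, with Gadd45a, a stress-induced gene, at 0.35 ± 0.11 and the transcription factor Atf5 at −0.26 ± 0.11 (SE, n = 4). Hspa1b, an inducible HSP70, stood at 0.13, 0.78, 0.43 and 0.52 in a list of 18 heat shock genes with 8 above 0. Of 20 hypoxia and angiogenesis genes 9 lay above 0. The endothelial receptor Tek stood at 0.21, 0.92, 0.43 and 0.82, and Epas1, the HIF-2 alpha subunit, was at 0.24 ± 0.08.

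Of 28 genes of insulin, AMPK and mTOR signalling, 14 lay above and 14 below 0, the median being 0.01. Tsc1, which restrains mTOR, stood at 0.31, 0.50, 0.33 and 0.52, above the pool on all 8 arrays. Akt2, the insulin-responsive kinase, was at 0.25 ± 0.09 on all 8, and Pik3ca, a catalytic subunit of PI3 kinase, at 0.24 ± 0.07 on 7 (SE, n = 4). The phosphatase Ptpn11 was at −0.22 ± 0.08 (SE, n = 4), with means of 0.07 in Cy5 and −0.50 in Cy3.

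Of 39 genes of extracellular matrix and TGF beta signalling, 15 lay above and 24 below 0. Beside Thbs1, the laminin chain Lamb1 stood at 0.49, 1.44, 0.29 and 0.80. Postn, a matrix protein of repair, stood at −0.64, −0.02, −0.76 and −0.55, with means of 0.05 in Cy5 and −1.035 in Cy3. Lox, which cross-links collagen, was at −0.19 ± 0.07 (SE, n = 4). Of 20 genes of small GTPases and the cytoskeleton, 7 lay above 0. Among them were Cnn2, a calponin, at 0.51 ± 0.12, Actb at 0.41 ± 0.11 and Rhoa at 0.35 ± 0.10. Rhoa read 0.75 on a probe numbered above 20000 and −0.06 on another.

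Markers of cells other than the fibre were given for each type. Macrophage markers were below 0 in 9 of 13 (median −0.10), with cathepsin S (Ctss) at −0.38, −0.50, −0.75 and −0.50. All its Cy5 arrays lay above 0 and all its Cy3 arrays below, at means of 0.33 and −1.39. Neutrophil markers were below 0 in 6 of 7 (median −0.08) and lymphocyte markers in 6 of 10 (median −0.03), where the T cell receptor chain Cd3d was at −0.37 ± 0.11, the leukocyte phosphatase Ptprc at −0.43 ± 0.13 and the costimulatory receptor Cd28 at 0.88 ± 0.16. Cd3e, of the same complex as Cd3d, was at 0.09 ± 0.06. By dye order Cd3d had means of −0.89 in Cy5 and 0.14 in Cy3, and Ptprc had means of 0.09 and −0.94. The 2 probes of Ptprc read −0.03 and −0.82. Endothelial markers lay between −0.26 and 0.60 (9 of 14 below 0), and fibroblast markers had the highest median of all lists, 0.10, with 8 of 11 above 0. Of the other marker lists, smooth muscle (−0.06), adipocyte (−0.01), erythroid (−0.02), nerve (0.02), tendon (0.00) and cardiac (−0.10) medians lay within 0.10 of 0. Inflammation genes had 12 of 25 above 0 (median −0.03). The part of cell makeup in any single value was not tested. Over the 30 lists none of the 526 distinct genes tested passed, list medians ran from −0.13 to 0.10, and 3 of 30 lay above 0, against a median of −0.02 for all genes. Turning the Cy3 arrays put the medians between −0.17 and 0.12, with 11 of 30 above 0 and 14 of changed sign.

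**Figure D2:**
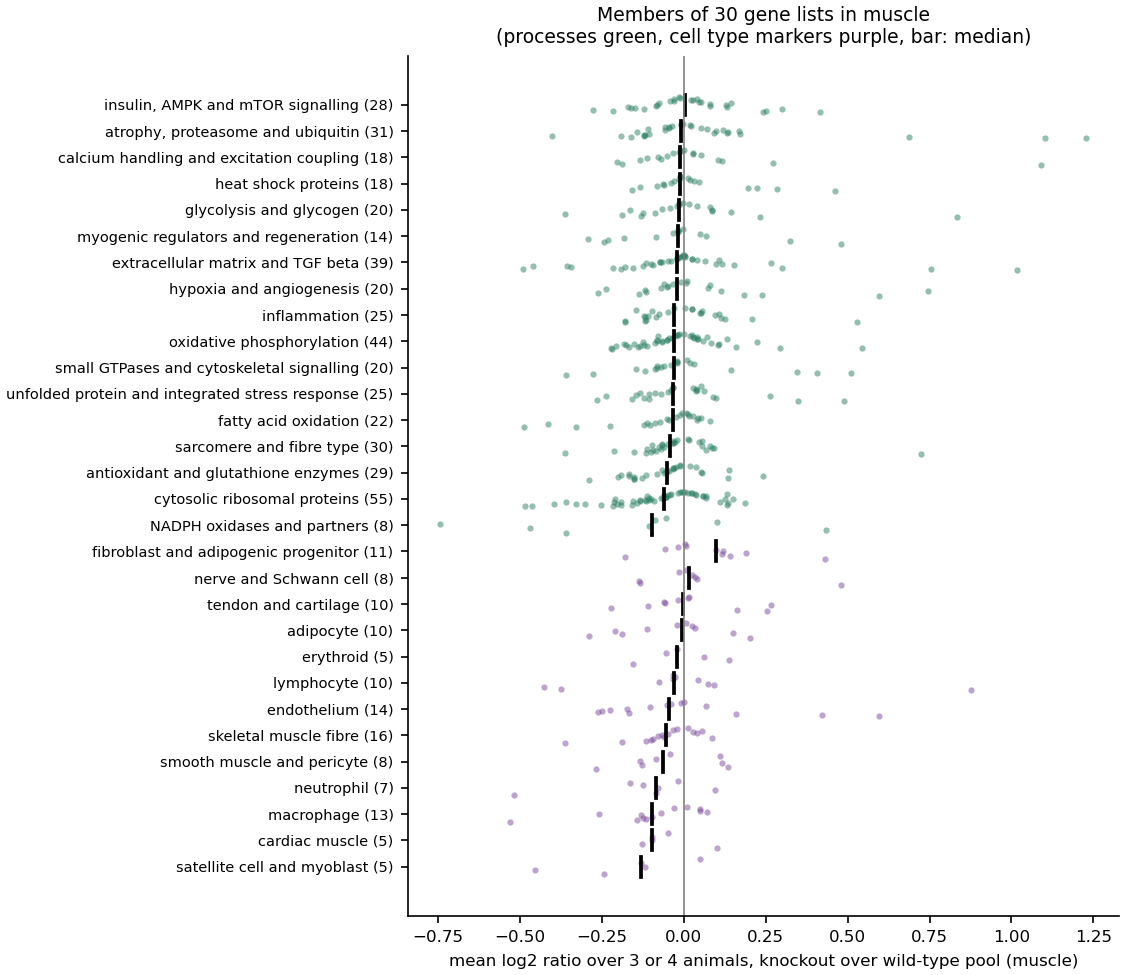
Mean log2 ratio of knockout over wild-type pool in muscle (x axis) for each tested member of 30 gene lists (y axis, number tested in brackets). Green points are members of process lists, purple points members of cell type marker lists and black bars the list medians, which lie between −0.13 and 0.10. Ublcp1, at 1.23, is the member farthest above the pool.

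Genes with 1 sign on all 8 muscle arrays were counted over the 16030 genes measured on every array. They were 251 above the pool (1.57%) and 88 below (0.549%), of which 139 and 50 carry a gene symbol. Brain had 66 above and 80 below, kidney 93 and 150, and pancreas 13 and 22. In muscle 54 genes had a mean above 1 and 4 a mean below −1. Of the 25 of these 54 with a symbol, 13 were above the pool on all 8 arrays, among them Cntn4, a neuronal adhesion molecule, Slc12a2, a sodium, potassium and chloride cotransporter, Mad2l1, of the mitotic checkpoint, and Atm, the kinase of the DNA damage response. These 4 were named after their values were seen. Counted by animal instead of by array, the lean was the reverse, with 1105 genes above the pool in all 4 animals (6.89%) and 1917 below (12%). With the Cy3 arrays turned, 880 genes lay above on all 8 and 1168 below.

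Other probes of the same gene mostly did not repeat the high values. Taken singly, 320 of 19370 probes (1.65%) were above the pool on all 8 arrays, and 100 of them, from 99 genes, have a further probe measured on all 8. The 100 had a median of 0.69 and the further probes one of −0.02, with 42 of 100 on the same side of 0. In 3 of 100 the further probes reached more than 0.5 of its size. Ncam1 was the 1 gene with another probe above the pool on all 8 arrays: its probes read 0.83 and 0.68, and the third −0.08. Gng10 read 1.38 on one probe and 0.04 on the other, Actb 0.75 and −0.18, Akt2 0.65, 0.10 and 0.00, the endothelial cadherin Cdh5 0.70 and 0.14, Mef2c 0.73 and −0.08, and Cnn2 0.85 and 0.18. Of the 3 probes of Ppp1r15a, 1 read 0.84 on 8 of 8 arrays, 1 read 0.04 and 1 read 0.78 on 4 of 7 arrays. Man1c1, Psmd2, 2310030G06Rik and 13 of the 15 higher genes in all have a single probe.

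Of 104 probes below the pool on all 8 arrays (0.537%), 30 have a further probe. The medians were −0.20 and −0.02, and 19 of 30 lay on the same side. Lgals1 read −0.55 on one probe and 0.00 on the other, Aplf −0.41 and −0.16, and Oard1 −0.40 and −0.11. No single probe of these genes or of Wdr33 was below the pool on all 8 arrays. Wdr33, of the mRNA 3′ end processing machinery, read −0.31 on both. Across the 2479 genes with 2 probes measured on every array, the means of 2 probes of a gene correlated at r = 0.0342 (Spearman rho 0.0432) and shared their sign in 53.8% of genes. These are values across genes, which are not replicates. The same r was 0.0179 in brain, 0.0373 in kidney and 0.00204 in pancreas. Which probe of a gene is correct, and whether the probes read the same transcripts, was not tested.

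**Figure D3:**
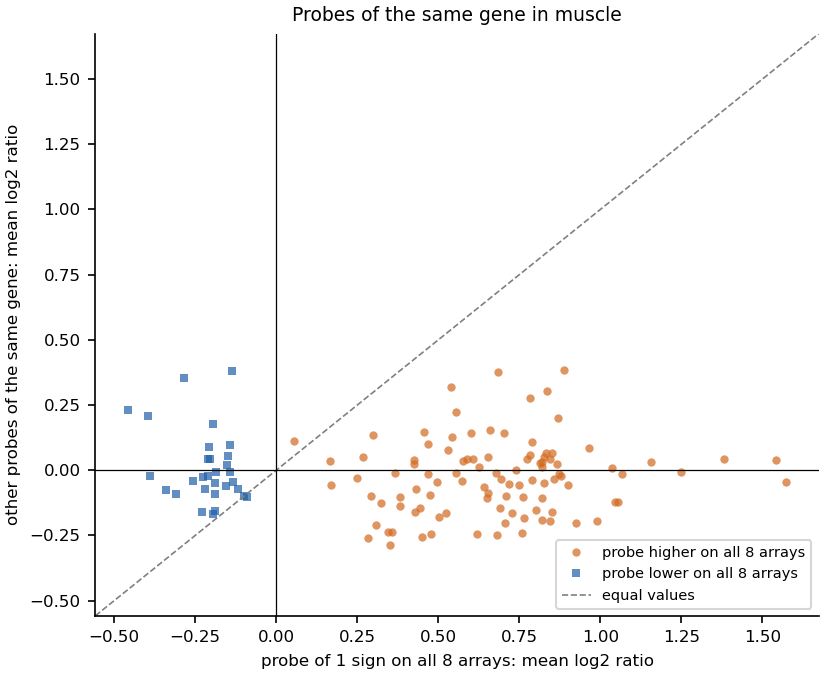
Each point is a probe with 1 sign on all 8 muscle arrays: its mean log2 ratio (x axis) against the mean of the other probes of its gene (y axis). Orange circles are 100 probes above the pool and blue squares 30 below, the dashed line marks equal values, and the orange points scatter around 0 in height (median −0.02) instead of along the line.

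In a few genes every probe kept 1 sign in all 4 animals. Of 2363 genes with at least 2 probes measured in all animals, 10 did so above the pool and 24 below, and these were named by this property after their values were seen. Over all 16030 genes measured in 4 animals, 6.89% lay above the pool in all 4 and 12% below. The number that unrelated probes would give was not computed, so these counts do not show that probes agree. Ccr2, the chemokine receptor of inflammatory monocytes, read 0.53, 1.47, 0.68 and 0.87 on one probe and 0.14, 0.82, 0.21 and 0.38 on the other. Tbx18, a T-box factor of mesenchymal and mural cells, had probe means of 0.38 and 0.30, Pik3ca 0.27 and 0.22, and the scavenger receptor Scara3 0.35 and 0.20, although both Scara3 probes were below 0 on 4 of 8 arrays. Both probes of Ccr2, both of Tbx18 and 1 each of Pik3ca, Scara3 and Lox are numbered above 20000, where high probes were most frequent. Btg2, an antiproliferative early response gene, read −0.10, −0.04, −0.88 and −0.49 on one probe and −0.32, −0.20, −1.06 and −0.26 on the other, so both probes were lowest in animal 3, but they were below 0 on only 4 and 6 of 8 arrays. Nfkbiz, a nuclear regulator of NF-kappa B targets, had means of −0.21 and −0.19, the deubiquitinase Usp8 −0.26 and −0.18, and the exosome nuclease Dis3 −0.23 and −0.16. Lox was below the pool in all 4 animals on each of its 3 probes, at −0.23, −0.18 and −0.17. None of these genes passed the test over all genes.

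High probes were unevenly placed in the order of probe numbers. Of the probes numbered 20001 to 20794, 11.5% were above the pool on all 8 arrays (83 of 723), and of those numbered 7001 to 8000 4.09% (38 of 930). In the other runs of 1000 numbers the share was 0.637% to 1.86%. Together these 2 runs held 121 of 1653 probes (7.32%), against 199 of 17717 elsewhere (1.12%). The shares below the pool were 0.726% in these runs and 0.519% elsewhere. Of the 15 higher genes 8 have a probe in these runs, among them Rpap1, Ublcp1, Bace2, Icam5, Thbs1, Flrt3 and Il18, while Man1c1, Psmd2, 2310030G06Rik, Unc13b, Hdac3, Zmpste24 and Ppp1r15a do not. Of the 112 genes named from the lists, 15 rest on a single probe in these runs, among them Gapdh, Psmd12, Lamb1, Tek, Tsc1, Cd28, Hspa1b, Gadd45a and Epas1. Without the 2 runs 156 genes lay above the pool on all 8 arrays and 77 below. The part of probe placement in these values was not tested.

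**Figure D4:**
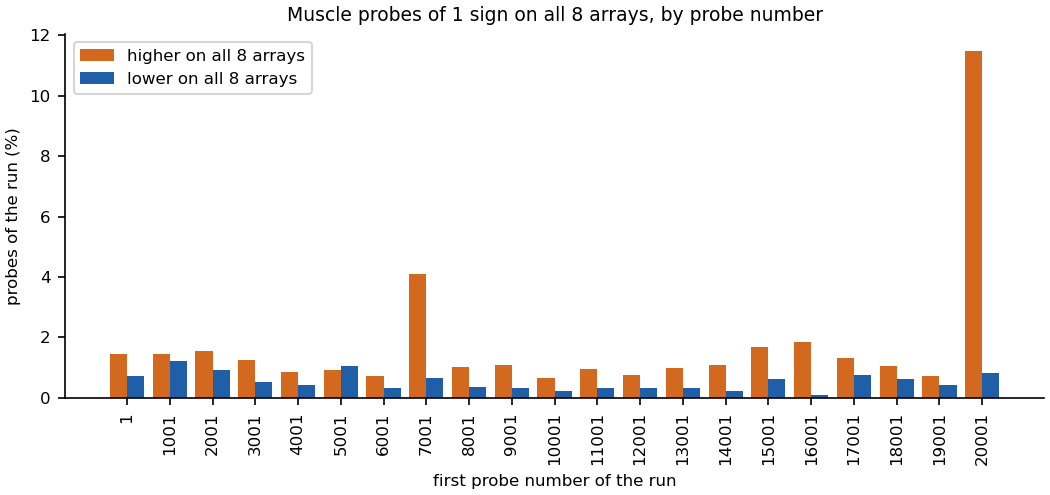
Share of probes with 1 sign on all 8 muscle arrays (y axis, %) in each run of probe numbers (x axis, labelled by its first number). Orange bars are probes above and blue bars probes below the pool; the last run reaches 11.5% above and the run from 7001 4.09%, while blue bars stay at or below 1.23%.

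The 251 genes above the pool on all 8 muscle arrays were followed on every array of the study. Their median in muscle was 0.29 and 0.25 on the arrays of animal 1, 0.78 and 1.07 in animal 2, 0.41 and 0.50 in animal 3 and 0.73 and 0.65 in animal 4. The muscle values chose the set and are a description. Outside muscle the set did not stay above the pool. In brain it was at 0.13 and 0.07 in animal 1 and below 0 on all 6 arrays of the other animals, down to −0.29 in animal 2. In kidney it was at −0.18 and −0.19 in animal 1, and the 6 arrays of the others ran from 0.00 to 0.16. In pancreas it ran from −0.30 in animal 1 to 0.18 in animal 4. The 2 arrays of an animal lay on the same side of 0 in each of these 12 pairs, while the medians of all genes on those arrays lay within 0.07 of 0.

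**Figure D5:**
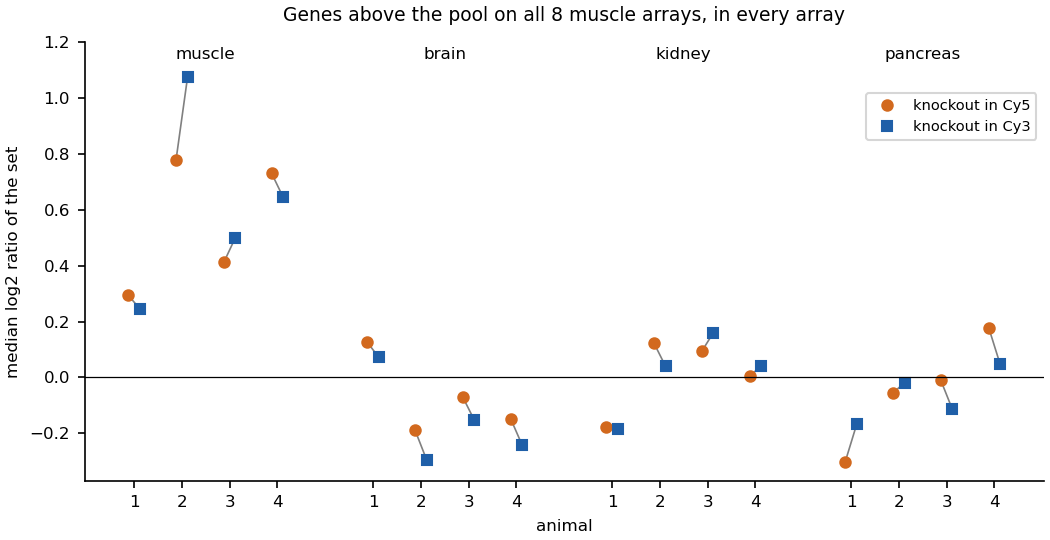
Median log2 ratio (y axis) of the 251 genes above the pool on all 8 muscle arrays, for each animal (x axis) and tissue. Orange circles are arrays with the knockout in Cy5 and blue squares with it in Cy3, joined by a line for each animal; muscle arrays lie between 0.25 and 1.07 and all others between −0.30 and 0.18.

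Muscle ratios were then compared with those of the other tissues, in limma over 16186 genes with the spread of 16 animal values shared. A higher ratio in muscle does not mean a higher level in muscle, since no array compared tissues, and each tissue was set against its own pool. The ratio of Psmd2 in muscle exceeded that in brain by 1.21 ± 0.15 (SE), that in kidney by 1.12 ± 0.15 and that in pancreas by 1.04 ± 0.15 (limma, adjusted p = 0.0112, 0.0189 and 0.0140). Its means in those tissues were −0.10, −0.02 and 0.07. Man1c1 was higher by 1.39, 1.35 and 1.64 (SE 0.20 each; limma, adjusted p = 0.0178, 0.0304 and 0.00397), with means of −0.02, 0.03 and −0.27. The 3 differences of a gene share the same muscle animals.

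In all, limma called 111 genes higher (0.686%) and 3 lower (0.0185%) in muscle than in brain, 3 higher (0.0185%) and 0 lower than in kidney, and 114 higher (0.704%) and 37 lower (0.229%) than in pancreas. Of those called higher, 93, 3 and 83 are in the set of 251, which is 1.57% of the genes measured on all 8 muscle arrays. The same muscle values chose that set and enter the differences, so this overlap is partly built in. Of the probes of the genes called higher, 46.8%, 33.3% and 32.6% lie in the 2 runs of probe numbers. Those runs hold 1653 of the 19370 probes measured on all 8 muscle arrays. Against brain the further calls of smallest p were 2310030G06Rik, Ublcp1, Thbs1 and Slc12a2, all higher in muscle by 1.24 to 1.36. Lower in muscle were Ttll6, a tubulin-modifying enzyme, by −0.51 ± 0.10, and Tceal9 by −0.57 ± 0.12 (SE). Against pancreas, Cnn2 was higher by 1.12 ± 0.13, from a mean of 0.51 in muscle and −0.61 in pancreas. Pomc, the precursor of ACTH, Tulp2, Homez, Best1, a chloride channel, Tsen15, of the tRNA splicing endonuclease, and Cd80, a costimulatory ligand, were lower, with differences between −0.79 and −0.63. Their pancreas means lay at 0.45 or more, and their muscle means between −0.30 and 0.15.

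How many calls were made between tissues depended on the fit and on single animals. Animals 1 to 4 each gave all 4 tissues, and with the animal as a replicate block the counts were 40 against brain, 0 against kidney and 66 against pancreas. Without animal 1 they were 237, 45 and 138, without animal 2 they were 0, 0 and 5, without animal 3 they were 0, 0 and 2, and without animal 4 they were 0, 0 and 2. With the Cy3 arrays turned they were 1, 0 and 6, with only the 2 tissues compared in the fit 0, 0 and 0, and with weights by tissue 138, 42 and 1.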

How the data were processed

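The 8 muscle arrays are part of 32 arrays of 4 tissues, hybridised with cDNA from 20 µg of total RNA per the labels' protocols. The authors deposited log2 ratios for each probe on each array. How the images were scanned, corrected and normalised is not given in the sources used here. The base of the logarithm is likewise unnamed and was taken as 2 from the size of the values. Values beyond 8 in size (1844 of 655162, with 0 between 8 and 15) were set to missing. Precision is limited by the number of arrays, and signal over background was not used. A probe annotation table named 12771 of 20794 probes with 1 symbol, 0 with several and 8023 with none; all 9030 symbols were found in RefSeq (GRCm38.p6). Probes of a symbol were averaged, and unnamed probes stayed units of their own, which gave 17053 units, called genes.

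Both arrays of an animal were averaged and at least 3 animals were required. Limma 3.58.1 (R 4.3.3; lmFit, eBayes, two-sided) tested the mean against 0 and the differences between muscle and each other tissue, with Benjamini-Hochberg adjustment at 0.05. Since the wild-type pool is 1 sample, the spread between control animals does not enter the tests. SE is limma's moderated error. The functions were tested on simulated data. Motifs and counts used Python 3.11.15. No p is given for the gene lists, which are described by counts and medians.

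Named genes were 15 above and 15 below the pool, taken by p among those with a symbol, 4 animals and 1 sign on all 8 arrays, the members of 30 lists with the smallest p, up to 4 of each, and up to 6 called genes per direction between tissues. Poldip2, Ncf4, Rac1, Noxo1, Psmb1 and Rhoa fall outside this rule and were named after their values were seen. Muscle genes, lists and rules were chosen with earlier results of these data known. Tissues are paired by animal, since each animal gave all 4 per the labels. Deviations from the tissue means correlated between muscle and the other tissues at r from −0.0730 to 0.121, over 0.1 in 2 of 12 pairs. Alternatives were values beyond 8 kept, centred or scaled arrays, other rules for missing arrays, each dye order alone, turned Cy3 arrays, each animal left out, robust moderation, an 8-array fit with a dye term, a shared spread, weights by tissue, only 2 tissues, the animal as a block and probes taken singly. Leaving out an animal from the counts of 1 sign, and leaving out the probes numbered 7001 to 8000 and above 20000, were added after seeing the data.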

Additional observations from a re-analysis of the deposited data

Results flagged for a closer look

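Among 140 groups of 4 animal values tested, 9 held an animal far from the other 3, where chance marks about 1 in 20 groups. Animal 3 stood apart in 5 of them. In animal 3 Fgf7 was at −0.57 (the others between −0.20 and −0.16), Cat at −0.53 (−0.22 to −0.21), and Ppara, a regulator of fatty acid oxidation, at −0.34 (−0.06 to −0.04). In the same animal Cryab, a small heat shock protein of muscle, was at 0.77 (0.09 to 0.18) and Adipoq, an adipocyte hormone, at −0.12 (0.23 to 0.25). By array, animal 3 read −0.53 in Cy5 and 2.07 in Cy3 for Cryab, 0.16 and −0.41 for Adipoq and 0.26 and −1.31 for Cat. The 2 probes of Cryab read 0.14 and 1.40 in that animal. In animal 4 Avil was at −0.26 (−0.17 to −0.16), Ptpn11 at −0.47 (−0.15 to −0.12) and Vcam1, an adhesion molecule, at −0.26 (−0.07 to −0.07). In animal 2 the adult globin Hba-a1 was at −0.07 (0.19 to 0.23). Of the 6 probes of Hba-a1, 1 read 1.30, −0.28 and 1.23 in animals 1, 2 and 4. The others lay between −0.18 and 0.16 in every animal.

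The 22 named differences between muscle and another tissue were chosen from the genes called in limma, by smallest p. That they passed the test of the difference is therefore built in. Their limma adjusted p ran from 0.00397 to 0.0468 without the animal as a block. With the animal as a replicate block 18 of the 22 stayed called, and Psmd2 and Man1c1 against kidney and Ttll6 and Tceal9 against brain were lost (limma, smallest adjusted p against kidney 0.051). Muscle minus brain was 1.21 for Psmd2, 1.39 for Man1c1, 1.24 for 2310030G06Rik, 1.36 for Ublcp1, 1.36 for Thbs1, 1.25 for Slc12a2, −0.51 for Ttll6 and −0.57 for Tceal9. Muscle minus kidney was 1.12 for Psmd2 and 1.35 for Man1c1. Muscle minus pancreas was 1.12 for Cnn2, 1.64 for Man1c1, 1.04 for Psmd2, 1.38 for Ublcp1, 1.58 for Bace2 and 1.11 for 2310030G06Rik. On the lower side it was −0.67 for Tulp2, −0.63 for Pomc, −0.74 for Homez, −0.66 for Best1, −0.74 for Tsen15 and −0.79 for Cd80.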

How the results depend on the processing

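Limma called 0 muscle genes in 13 of 17 alternatives, among them each animal left out (0 to 0). It called 1 with the knockout in Cy3 alone, an unnamed probe, 2 in the 8-array fit, 281 with a shared spread and 882 with the Cy3 arrays turned. All results with the Cy3 arrays turned would be dye differences if those columns were turned before deposit. Genes of 1 sign on all 8 arrays were 880 above and 1168 below with the Cy3 arrays turned, and 156 above without the probes numbered 7001 to 8000 and above 20000. With an animal left out, 326 to 482 lay above on the 6 remaining arrays and 240 to 340 below, where fewer arrays ask for less. Of the 144 distinct named genes, 86 changed sign with the Cy3 arrays turned, among them 8 of the 15 higher and 10 of the 15 lower genes; 29 did so on the Cy5 arrays alone and 14 on the Cy3 arrays alone, and at most 3 did so in any other alternative.

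Calls against brain, kidney and pancreas were 40, 0 and 66 with the animal as replicate block, 1, 0 and 6 with the Cy3 arrays turned, and 0 in all 3 with only the 2 tissues compared. With values beyond 8 kept they were 75 and 94 against brain and pancreas, and without the 2 runs of probe numbers 42 and 67. Weights by tissue gave 42 against kidney and 1 against pancreas. With an animal left out they ran from 0 to 237, 0 to 45 and 2 to 138. Of the 40 and 66 calls with the block, 40 and 65 were also made without it. The causes were not tested.

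With the Cy3 arrays turned, 12 of the 22 named differences changed sign. Muscle minus brain became −0.037 for Psmd2, −0.24 for Man1c1, −0.0886 for 2310030G06Rik, −0.29 for Ublcp1, −0.0349 for Thbs1, −0.11 for Slc12a2 and 0.0885 for Tceal9. Muscle minus kidney became −0.18 for Man1c1. Muscle minus pancreas became −0.22 for Cnn2, −0.13 for Man1c1, 0.88 for Tulp2 and 0.0884 for Pomc.

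The limits are 4 animals, 1 pool of unsettled size, a median dye effect above the median size of the ratios, and a direction that rests on the design text.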
